A study of Homo sapiens with 6 samples.

Results

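The genes described are the MHC class II antigen presentation genes of SKM-1 cells, a human line of acute myeloid leukaemia (AML). They were chosen by name, 10 in all, as protein-coding genes in the deposited tables. Of these, 7 had a row in at least 1 table, out of 15778 protein-coding genes and 26704 genes in all. HLA-DRB1, HLA-DQA1 and HLA-DQB1 had no row in the tables used here and are not analysed here. HLA-DRA had a row in the BOR table alone.

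RNA was sequenced from 6 libraries of SKM-1 cells: 1 library of cells given VEM, 1 of cells given VEM+BOR, 2 of cells given BOR and 2 of untreated cells. The series title names vemurafenib, an inhibitor of RAF kinases, which VEM is taken to abbreviate, while the labels do not spell out BOR. The labels give no dose, no exposure time, no allele and no other agent for any group. All groups are the same line. Whether the 2 BOR or the 2 untreated libraries came from separate cultures is not stated, so the p-values measure only how far these libraries differ, and that spread may be technical. BOR 2 stood apart from the other libraries: B2M, the light chain of class I, was 77896 there and 35050 to 38861 in the other 5, and BOR values are also given without it where it moved them most.

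MHC class II molecules carry peptides from endocytosed proteins to the surface of antigen-presenting cells, where CD4 T cells read them. Each is a pair of an alpha and a beta chain (HLA-DR, HLA-DP or HLA-DQ) that is built around the invariant chain CD74. In endosomes the CD74 remnant is exchanged for a peptide with the help of HLA-DM. CIITA is the coactivator that drives these genes as a group, from promoters that hold an X box and a Y box, and myeloid blasts differ widely in how much class II they carry.

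Promoters of HLA-DMA, HLA-DMB, HLA-DPB1 and CD74 are printed here because the X box and the Y box are the sites through which CIITA acts. They are the 250 bases before the RefSeq start of the gene on GRCh38.p14. Capitals mark the Y box core ATTGG (or CCAAT on the other strand) and an X box pattern, AG, any 2 bases, AC, any base and GATG (or its reverse complement), whose letters were chosen after the promoters had been read. HLA-DMA lies at chr6:32953098-32953347 (minus strand), HLA-DMB at chr6:32941029-32941278 (minus strand), HLA-DPB1 at chr6:33075740-33075989 (plus strand) and CD74 at chr5:150412911-150413160 (minus strand).
HLA-DMA: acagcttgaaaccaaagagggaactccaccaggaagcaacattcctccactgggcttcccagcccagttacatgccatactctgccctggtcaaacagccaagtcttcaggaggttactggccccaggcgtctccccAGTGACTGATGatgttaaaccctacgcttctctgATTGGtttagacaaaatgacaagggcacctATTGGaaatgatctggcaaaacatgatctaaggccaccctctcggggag
HLA-DMB: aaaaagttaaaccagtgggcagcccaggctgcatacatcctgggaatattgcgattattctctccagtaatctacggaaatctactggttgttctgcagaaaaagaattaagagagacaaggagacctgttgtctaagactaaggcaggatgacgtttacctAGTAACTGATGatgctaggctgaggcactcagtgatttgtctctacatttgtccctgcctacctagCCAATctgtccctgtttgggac
HLA-DPB1: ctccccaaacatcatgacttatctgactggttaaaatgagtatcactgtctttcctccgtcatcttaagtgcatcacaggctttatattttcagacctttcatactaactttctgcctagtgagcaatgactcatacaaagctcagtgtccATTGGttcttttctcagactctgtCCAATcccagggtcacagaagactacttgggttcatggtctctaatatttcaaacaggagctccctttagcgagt
CD74: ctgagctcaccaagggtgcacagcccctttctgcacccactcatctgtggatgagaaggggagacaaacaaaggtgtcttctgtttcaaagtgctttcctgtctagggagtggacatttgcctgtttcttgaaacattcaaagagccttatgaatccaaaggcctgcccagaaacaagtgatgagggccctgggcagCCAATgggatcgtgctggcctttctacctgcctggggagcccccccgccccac
On either strand, ATTGG occurred in 32% of 35116 promoter windows of the same length, the X pattern in 0.692% and both in 0.216%. Of the 10 listed genes, 8 matched a RefSeq window. The Y core stood in windows of 7 of them, and the X letters together with the Y core in 4, HLA-DRB1, HLA-DQB1, HLA-DMA and HLA-DMB. Between the X letters and the nearest Y core after them lay 22 or 23 bases in the first 3 and 55 in HLA-DMB, so the HLA-DMB core need not be a Y box that goes with its X letters. The windows of HLA-DPB1 and CD74 held the Y core without these X letters, which says only that these letters are not in that window.

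The class II chains were low, while their chaperone CD74 was well expressed. Values in the next paragraphs are normalised reads with all 6 libraries brought to 1 scale. Set per kilobase of gene length, CD74 averaged 210.9 normalised reads per kb over the libraries (150.1 to 302.3), above 74.3% of 14984 protein-coding genes found in all tables, whose median was 69.5. The chains followed far below. HLA-DMA averaged 17.1 per kb (4.96 to 28), HLA-DPB1 11.2 (8.67 to 16), HLA-DPA1 4.37 (1.10 to 7.47) and HLA-DMB 1.30 (0 to 2.26). Of the 6 genes with rows in all tables CIITA had the lowest mean, 1.05 per kb (0.833 to 1.19), above 9.36% of genes, though HLA-DMB was lower in VEM+BOR and BOR 2. The ranges of HLA-DMA and HLA-DPB1 overlapped, as did those of HLA-DPA1, HLA-DMB and CIITA, while HLA-DPB1 lay above HLA-DPA1, and CD74 above all of these, in every library. The CIITA model joins the exons of all its annotated transcripts into 20757 bases, so its level per length would be higher for a single transcript.

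CD74 (ENSG00000019582, chr5:150401637-150412929) is the invariant chain. Its normalised read count was 724.9 in VEM, 480.7 in VEM+BOR, and 628.4 and 753.6 in the BOR libraries, against 962.6 and 478.0 in the untreated libraries. The untreated pair spanned the whole range, and every treated library lay between its values.

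HLA-DPA1 (ENSG00000231389, chr6:33064569-33080775) encodes the alpha chain of HLA-DP. Its count was 36.4 in VEM, 6.34 in VEM+BOR, and 29.2 and 21.3 under BOR, against 42.9 and 14.5 in untreated cells. Of the 4 treated libraries only VEM+BOR was outside the untreated pair, below both, and it rested on 7 reads (95% exact Poisson interval 2.81 to 14.4, counting error only). HLA-DPB1 (ENSG00000223865, chr6:33075926-33087201), the beta chain, was 31.8 in VEM, 32.6 in VEM+BOR, and 27.4 and 26.7 with BOR, against 44.7 and 24.2 in untreated cells. All 4 treated libraries lay inside the untreated pair, so HLA-DPB1 did not share the low VEM+BOR value of its partner. The 2 genes lie on opposite strands and share 96 exonic bases, and the protocol names no step that marks strand, so reads of those bases cannot be told apart.

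HLA-DMA (ENSG00000204257, chr6:32948613-32969094) and HLA-DMB (ENSG00000242574, chr6:32934629-32941070) form the peptide exchange factor HLA-DM. HLA-DMA was 37.3 in VEM, 45.3 in VEM+BOR, and 41.1 and 52.0 under BOR, against 70.9 and 12.6 in untreated cells. Its 4 treated values lay close together, inside an untreated pair that differed 5.64-fold. It shares 55 exonic bases with BRD2 on the other strand, a gene at 2562 to 10593 normalised reads, so reads of those bases cannot be told apart. AL645941.2, annotated on the same strand and without a row, shares 174 exonic bases with HLA-DMA (6.87%) and 438 with HLA-DMB (9.41%). HLA-DMB was 10 in VEM, 1.81 in VEM+BOR, and 8.22 and 0 under BOR, against 10.5 and 5.81 in untreated cells. VEM+BOR held 2 reads and BOR 2 held 0, which allows up to 3 reads (3.92 normalised reads on the scale of the BOR table), against 12 and 6 reads in untreated cells. VEM and BOR 1 lay inside the untreated pair, VEM+BOR and BOR 2 below it.

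CIITA (ENSG00000179583, chr16:10866222-10943021) was 17.3 in VEM, 21.7 in VEM+BOR, and 24.7 and 21.3 under BOR, against 23.7 and 22.3 in untreated cells. It was the steadiest of these genes between the untreated libraries, and its treated values lay on both sides of that pair. DEXI, on the other strand, shares 2416 bases, 11.6% of the CIITA exons, and was at 100 to 150.7 in 5 libraries and 40.02 in BOR 2, so reads in those bases cannot be told apart. AC133065.3, annotated on the same strand and without a row, shares 2378 bases, 11.5% of the CIITA exons. HLA-DRA, the alpha chain of HLA-DR, held 2 and 0 reads in the BOR libraries against 1 and 0 in untreated cells, which is at or under the limit of 3 reads that a count of 0 allows. How reads of the polymorphic HLA alleles of SKM-1 were aligned by the authors was not tested.

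**Figure D1:**
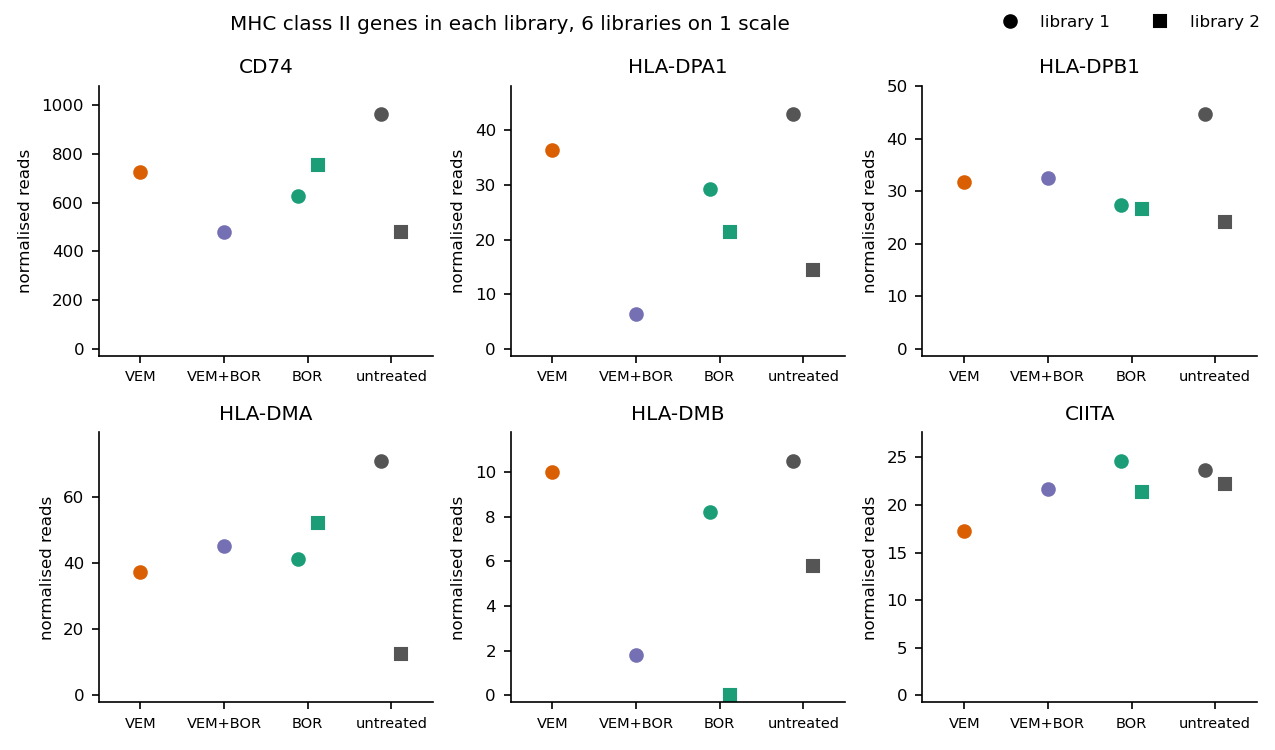
Normalised read count (y axis from 0, all libraries on 1 scale) of 6 class II genes in VEM, VEM+BOR, BOR and untreated cells. Each point is 1 library, with circles for the first and squares for the second library of a group. For CD74, HLA-DPB1 and HLA-DMA all 4 treated libraries lie between the untreated pair, and HLA-DPA1 and HLA-DMB are low in VEM+BOR at 6.34 and 1.81.

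Reads were few for the chains and ample for CD74. Recovered totals were 17252404 to 18507606 reads per library. HLA-DPA1, HLA-DPB1, HLA-DMA and HLA-DMB, with HLA-DRA in the BOR and untreated libraries, were summed, without HLA-DOA and HLA-DOB. Together they held 127 reads in VEM, 95 in VEM+BOR, 118 and 75 in BOR 1 and BOR 2, against 194 and 59 in untreated 1 and 2. CD74 alone held 797 in VEM, 531 in VEM+BOR and 688 and 565 under BOR, against 1099 and 494 in untreated cells. These are reads before scaling, and 1 read was worth 0.895 normalised reads in BOR 1 and 1.31 in BOR 2. They show how much was counted and are not levels to compare between libraries. On 1 scale CD74 was 628.4 in BOR 1 and 753.6 in BOR 2, the other order. Neither reads nor levels can tell fewer cells that carry class II from less RNA per cell.

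Class I genes, which show peptides to CD8 T cells, were at the other end of the range. HLA-B and HLA-C together were 349.2 times the level of the measured class II chains per kb in VEM, 403.6 times in VEM+BOR, and 382.8 and 919.2 times in BOR, against 210.8 and 761.2 times in untreated cells. NLRC5, the class I coactivator related to CIITA, averaged 252.1 per kb, and was 192.3 to 313.7 times CIITA in each library. This ratio depends on the CIITA model of 20757 bases, and CIITA held 16 to 27 reads per library, so its size is rough. Before division by length the means were 3123 for NLRC5 and 21.8 for CIITA.

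**Figure D2:**
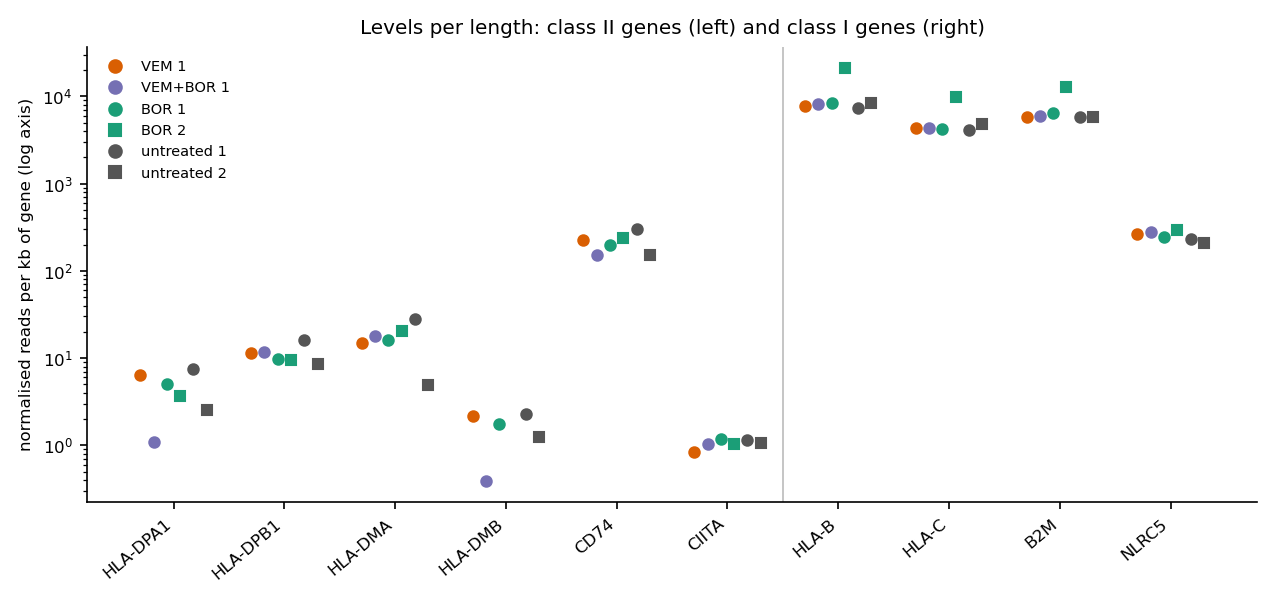
Normalised reads per kb of gene (log axis) for class II genes, left of the line, and class I genes, right of it, with 1 point per library in the order VEM, VEM+BOR, BOR 1, BOR 2, untreated 1, untreated 2. HLA-DMB in BOR 2 is at 0 and is not drawn. Class II chains stay between 0.39 and 28 per kb where drawn, CD74 between 150.1 and 302.3, and HLA-B and HLA-C are at 4065 or more.

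The cells carried the markers of the labelled myeloid line. All 8 myeloid blast markers (MPO, ELANE and PRTN3 among them) were measured, with summed levels of 45890 in VEM, 42968 in VEM+BOR, and 109413 and 144741 under BOR, against 97474 and 115202 in untreated cells. PRTN3 made up 17286 of the VEM sum and 16544 of the VEM+BOR sum, against 46551 and 52914 in untreated cells. MPO, ELANE, PRTN3 and CEBPA were below both untreated libraries in VEM and in VEM+BOR, while CD33, ANPEP, SPI1 and CSF3R were not. Among cells that carry class II constitutively, B cells and dendritic cells were checked by their markers. Of 5 B cell markers, 4 were measured, with a summed level of 92.8 in VEM, 63.4 in VEM+BOR, and 107.8 and 78.7 under BOR, against 136.6 and 63.9 in untreated cells. MS4A1 had no row. Of 6 dendritic cell markers, 2 had rows in all tables, with sums of 0.91 to 11.4, and CD1C, CLEC9A and FCER1A had none. Of 5 monocyte markers, 4 had rows in all tables, with sums of 1139 in VEM, 1294 in VEM+BOR, and 559 and 701.6 under BOR, against 639.4 and 275.8 in untreated cells, while CD14 was at 0 to 6.67. ITGAM made up 1112 of the VEM sum and 1232 of the VEM+BOR sum, and CSF1R went the other way, with 11.8 in VEM and 18.1 in VEM+BOR, against 109.5 and 46.4 in untreated cells. T cell markers had no row.

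For CD74, HLA-DPB1 and HLA-DMA both the highest and the lowest library were untreated. All 6 genes with rows in all tables were higher in untreated 1 than in untreated 2, a direction shown by 49.6% of the 15438 genes with a mean of at least 10. Of the 5 class II genes with such a mean, 3 were at least 2-fold higher in untreated 1, against 9.03% of all genes. The log2 difference was 2.41 for HLA-DMA, 1.50 for HLA-DPA1, 1.01 for CD74, 0.86 for HLA-DPB1, 0.76 for HLA-DMB and 0.08 for CIITA. For HLA-DMA this was 81 reads (95% exact Poisson interval 64.3 to 100.7) in untreated 1 and 13 reads (6.92 to 22.2) in untreated 2. For CD74 it was 1099 reads (1035 to 1166) and 494 reads (451.4 to 539.5), so both differences exceed counting error. Of the 24 treated values of these 6 genes, 17 lay between the untreated values, 6 below and 1 above. Over all genes with a mean of at least 10, a filter that HLA-DMB did not pass, 36.9% of such values lay between. A wide untreated pair holds more values between by itself, and the 24 values come from the same few libraries. This share is therefore not a result apart from the width of the pair. The 4 measured B cell markers were also all higher in untreated 1, from CD79A, the most abundant, at 54.3 and 47.4 to PAX5 at 45.5 and 10.6 and CD79B at 31.5 and 4.84 in untreated 1 and 2, as were 3 of 4 monocyte markers and 4 of 8 myeloid blast markers. Their part in the class II difference was not tested.

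**Figure D3:**
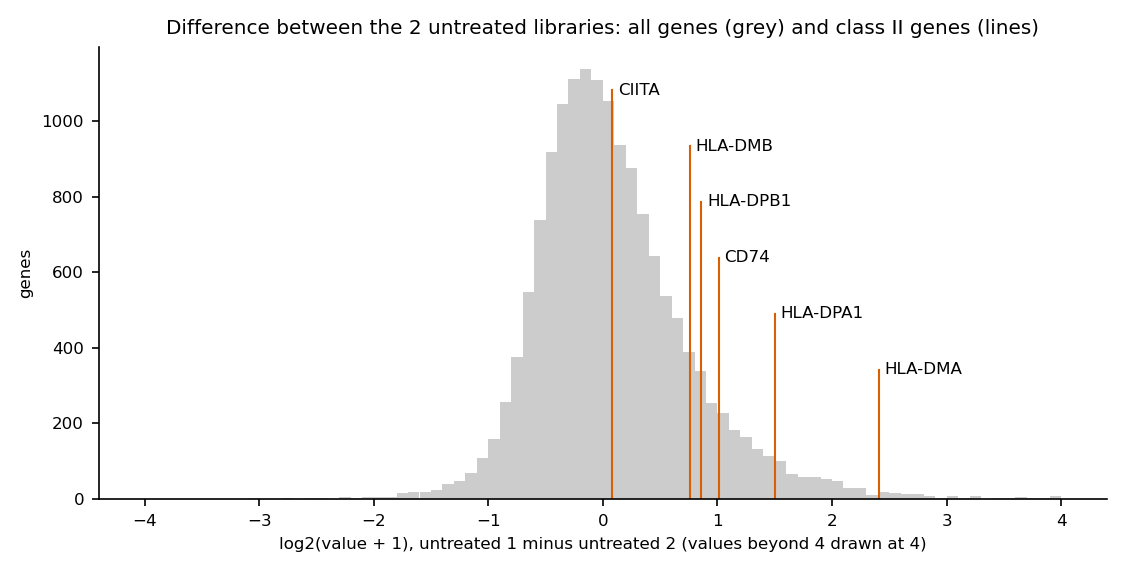
Histogram of the log2(value + 1) difference, untreated 1 minus untreated 2, over 15438 genes with a mean of at least 10 (grey), with the class II genes as lines whose heights carry no value. HLA-DMB, with a lower mean, is drawn too. CIITA is near 0 at 0.08, and HLA-DPA1 at 1.50 and HLA-DMA at 2.41 are far to the right.

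VEM was set against untreated cells to ask whether the RAF inhibitor moved class II genes. None of them passed the threshold. In limma with adjusted p under 0.05, 0 of 5 tested genes passed, against 0.0446% of 15689 genes (0.0382% higher and 0.00637% lower), and 0 had an unadjusted p under 0.05, as had 399 of all genes. By edgeR and DESeq2 on recovered reads 0 of the 5 passed too. Changes are differences of log2(value + 1), so those of low genes come out too small, and values were scaled within this table. The median change was 0.09, where that of all genes was 0. CD74 had a log2 difference of 0.09 (SE 0.42, 95% interval -0.80 to 0.97, adjusted p = 1 in limma). HLA-DPA1 had 0.51 (SE 0.81), HLA-DMA 0.29 (SE 0.87), HLA-DPB1 -0.05 (SE 0.75) and CIITA -0.40 (SE 0.82). By edgeR and DESeq2 HLA-DMA was at -0.19 and -0.18 and CD74 at -0.01 and -0.0042, the other direction. CIITA was the gene below both untreated libraries, as 27.6% of all genes were, and 0 were above both, against 30.3% of all genes. Without untreated 1, CD74 was at 0.60, HLA-DMA at 1.50 and HLA-DPA1 at 1.27. Without untreated 2 they were at -0.41, -0.91 and -0.23, so all 3 directions turned with the control library used. The intervals leave room for changes of over 2-fold in the chains and of just under 2-fold in CD74.

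BOR was the comparison with 2 libraries on each side, and no class II gene passed the threshold there either. In limma 0 of 5 tested genes passed, against 0% of 15382 genes, and 0 of the 5 had an unadjusted p under 0.05, as had 38 of all genes. By edgeR and DESeq2 0 of the 5 passed too. The median change was 0, against 0.04 over all genes. CD74 had a log2 difference of 0.02 (SE 0.53, interval -1.26 to 1.30, adjusted p = 0.996 in limma), HLA-DMA 0.60 (SE 0.93; 0.06 by edgeR and 0.13 by DESeq2), HLA-DPB1 -0.27 (SE 0.69), HLA-DPA1 -0.0032 (SE 0.80) and CIITA 0.0033 (SE 0.68). All 5 overlapped between the groups, where 11.7% of all genes lay wholly above and 8.24% wholly below in BOR. Without BOR 2, CD74 was at -0.11, HLA-DPA1 at 0.22 and HLA-DMA at 0.43, and without untreated 1 or untreated 2 HLA-DMA was at 1.79 or -0.60.

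Among the tested class II genes VEM+BOR held the largest difference, in HLA-DPA1, and it did not pass. The count of HLA-DPA1 within this table was 6.89 in VEM+BOR, against 46.9 and 16.0 in untreated cells. Its log2 change was -1.85 (SE 0.92, interval -3.78 to 0.07, unadjusted p = 0.058 and adjusted p = 1 in limma). The value was -1.08 without untreated 1 and -2.58 without untreated 2, in a fit of all other libraries. In the authors' deposited table its log2 fold change is -2.19, with p = 0.101 and an adjusted p of 1. In limma 0 of 5 tested genes passed, against 0.192% of 15606 genes (0.173% higher and 0.0192% lower), and 0 had an unadjusted p under 0.05, as had 469 of all genes. By edgeR on recovered reads 0 of 5 passed. DESeq2 gave an adjusted p for 2 of the 5, CD74 and HLA-DMA, and neither passed, while HLA-DPA1, HLA-DPB1 and CIITA got none. The median change was -0.09, against 0.01 over all genes. CD74 had a log2 difference of -0.51 (SE 0.42, interval -1.39 to 0.37), HLA-DMA 0.56 (SE 0.85; 0.06 by edgeR and 0.08 by DESeq2), CIITA -0.09 (SE 0.80) and HLA-DPB1 -0.03 (SE 0.74). HLA-DPA1, CD74 and CIITA were below both untreated libraries in this table, 3 of 5 where 27.9% of all genes were, and 0 were above both, where 30.1% were. However, CD74 was at 522.6 against 526.4 in the lower of them and lay just above it once all 6 libraries shared a scale. Without untreated 1, CD74 was at 0.01. HLA-DMB, under the filter on low values, was at 1.97 in VEM+BOR against 11.5 and 6.39 in untreated cells, and was not tested here. The authors' deposited log2 fold change for it is -2.19, the same as for HLA-DPA1. It rests on 2 reads in VEM+BOR and did not pass there either.

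VEM+BOR was also set against BOR, to see the class II genes when VEM is added, with values on 1 scale. In limma 0 of 5 passed, against 0% of 15390 genes, and 0 of the 5 had an unadjusted p under 0.05, as had 43 of all genes. By edgeR and DESeq2 0 of the 5 passed as well. The changes were -1.82 for HLA-DPA1 (SE 1, interval -4.26 to 0.61), -0.52 for CD74 (SE 0.65), 0.26 for HLA-DPB1 (SE 0.84), -0.08 for CIITA (SE 0.82) and -0.03 for HLA-DMA (SE 1.14), with a median of -0.08 against -0.01 over all genes. HLA-DPB1 lay above both BOR libraries, as 22.3% of all genes did, and HLA-DPA1 and CD74 below both, as 24.3% did. Without BOR 2, HLA-DPA1 was at -2.04 and CD74 at -0.39. VEM+BOR and VEM, 1 library each, can only be set side by side: HLA-DPA1 was 6.34 and 36.4, HLA-DMB 1.81 and 10, CD74 480.7 and 724.9, and HLA-DPB1 32.6 and 31.8. The 2 comparisons of VEM+BOR use the same VEM+BOR library, and the 3 against untreated cells share their controls, so like values across them are not separate observations. The departure of VEM+BOR from the sum of the single changes was -2.34 for HLA-DPA1 (SE 1.39) and -0.61 to 0.31 for the other 4 genes, with an adjusted p of 1 in limma for each.

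**Figure D4:**
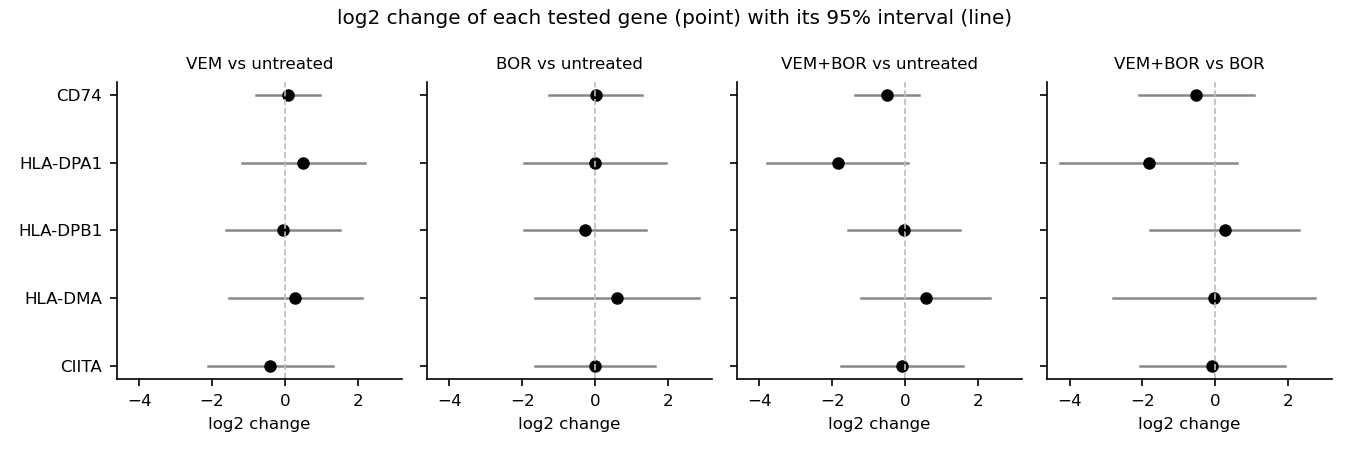
log2 change (x axis, log2(value + 1) scale) of the 5 tested class II genes in each of 4 comparisons, with points for the estimate and lines for the 95% interval from limma. All lines cross 0, and HLA-DPA1 in VEM+BOR lies farthest left, at -1.85 against untreated cells and -1.82 against BOR.

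No other gene listed for the pathway passed the threshold either, and most were expressed well above the chains. Over 7 lists of other class II and related genes, limma called 0 of 40 tested genes in VEM and 0 of 41 in BOR. It called 0 of 40 in VEM+BOR and 0 of 41 in VEM+BOR against BOR. Over all genes the shares called were 0.0446%, 0%, 0.192% and 0%, so 0 calls says little about these lists. At an unadjusted p under 0.05 there were 1, 0, 2 and 0, beside 399 of 15689, 38 of 15382, 469 of 15606 and 43 of 15390 genes in all. By edgeR and DESeq2 0 were called in each comparison, though DESeq2 gave no adjusted p to 1 or 2 of the genes in all but the last. The BOR medians of these lists are given with and without BOR 2. Of 5 further class II chains, HLA-DOA and HLA-DOB, which form the brake on HLA-DM, were at 0 to 3.5 and 0 to 1.94 normalised reads, and the others had no row.

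The factors that hold CIITA at the X and Y boxes were expressed above 47.9% (NFYB) to 91.3% (RFX5) of genes per length. The 7 of them had median changes of -0.12 in VEM, -0.03 in BOR (0.15 without BOR 2) and 0.22 in VEM+BOR against untreated cells. RFX5, the DNA-binding subunit of RFX, was 3244 in VEM, 3426 in VEM+BOR, and 3210 and 2221 under BOR, against 2830 and 2644 in untreated cells. RFXAP, its partner, was 678.5 in VEM, 620.1 in VEM+BOR, and 531.6 and 122.7 under BOR, against 458.1 and 526.4 in untreated cells. Its BOR difference of -0.94 (SE 0.76) rested on BOR 2 and was 0.12 without it. NFYA, a subunit of the Y box factor NF-Y, had log2 differences of 0.17 in VEM (SE 0.36), 0.33 in BOR (SE 0.43) and 0.37 in VEM+BOR (SE 0.36).

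The 8 genes listed for interferon gamma signalling to CIITA, SOCS1 among them, had medians of 0.11 in VEM, 0.10 in BOR (0.16 without BOR 2) and 0.17 in VEM+BOR. IRF1, which binds the inducible CIITA promoter, was 286.5 in VEM, 485.2 in VEM+BOR, and 327.9 and 1247 under BOR, against 281.1 and 260.3 in untreated cells, with a log2 change in VEM+BOR of 0.83 (SE 0.42, unadjusted p = 0.0598). IFNGR2, a chain of the interferon gamma receptor, was 886.8 in VEM, 852.7 in VEM+BOR, and 602.9 and 2330 in the 2 BOR libraries, against 577.2 and 524.4 in untreated cells. In both genes the BOR value came mostly from BOR 2, with 1.24 for IRF1 and 1.11 for IFNGR2 against 0.28 and 0.14 without it. JAK2, the receptor's kinase, was 201.9 in VEM, 276.1 in VEM+BOR, and 265.8 and 17.3 under BOR, against 236.5 and 120.0 in untreated cells.

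Endosomal proteases and their helpers, which cut antigens and CD74, had medians of -0.04 in VEM, 0.25 in BOR (-0.01 without BOR 2) and 0.07 in VEM+BOR over 8 tested genes. CTSS, the protease that trims CD74 in antigen-presenting cells, was 463.8 in VEM, 607.4 in VEM+BOR, and 502.4 and 541.5 under BOR, against 573.7 and 449.9 in untreated cells. CTSH had a log2 change of -0.49 in VEM+BOR (SE 0.44) and CTSD one of 0.24 (SE 0.38). IFI30, which reduces disulfide bonds of antigens, was at 0 to 10.6 normalised reads, and the protease LGMN at 0 to 9.63, both under the filter.

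Among genes of class II turnover and costimulation, medians were 0.47 in VEM and 0.34 in VEM+BOR, over 5 tested genes each. The BOR median was 0.58 over 6 genes, and 0 without BOR 2 over 5, so these medians cover unlike genes. The gene that differs, LAG3, passed the filter on low values through BOR 2. It was at 38.7 normalised reads there and 2.73 to 6.34 in the other libraries. ICAM1, the adhesion partner of T cells, was 961.4 in VEM, 953.2 in VEM+BOR, and 510.6 and 2508 under BOR, against 655.1 and 402.5 in untreated cells, with log2 changes of 0.90 in VEM (SE 0.40, unadjusted p = 0.0375) and 0.88 in VEM+BOR (SE 0.40, unadjusted p = 0.0394), each with an adjusted p of 1 in limma. CD83, which protects class II from turnover, had 0.47 (SE 0.37) in VEM and 0.40 (SE 0.37) in VEM+BOR, and MARCH8, a ubiquitin ligase gene, 0.10 and 0.34. CD80 and CD86, the costimulatory ligands, were at 0 to 5.26 and 0 to 15.5 normalised reads.

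Genes known to act on CIITA in myeloid and lymphoid cells had medians of -0.06 in VEM, 0.32 in BOR (0.16 without BOR 2) and 0.16 in VEM+BOR. PRDM1, a repressor of CIITA in plasma cells, was 9.10 in VEM, 2.72 in VEM+BOR, and 10.1 and 52.0 under BOR, against 14.9 and 16.5 in untreated cells, with a log2 change of -2.20 in VEM+BOR (SE 1.03, unadjusted p = 0.044, adjusted p = 1 in limma). In that library HLA-DPA1, at 6.34 on the same scale, was 7 reads, so the PRDM1 value of 2.72 rests on fewer reads still. KAT2B and CREBBP, acetyltransferases that work with CIITA, had changes of 0.64 (SE 0.44) and 0.47 (SE 0.36) in VEM+BOR. IRF8 and IRF4 were at 3.65 to 9.63 and 0 to 6.67 normalised reads, while SPI1, a myeloid master regulator, was at 5303 to 7133. The 4 class I genes given here had medians of -0.01 in VEM, 0.60 in BOR (0.12 without BOR 2) and 0.04 in VEM+BOR, with NLRC5 at 0.34 (SE 0.38), HLA-B at 0.05 (SE 0.58) and HLA-C at -0.05 (SE 0.48) in VEM+BOR.

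The profile of CD74, the class II gene with the highest level per length, was compared with 12762 other protein-coding genes over the 6 libraries, by the root-mean-square difference of centred log2 values. PLEKHA7 was nearest, at 0.048, with 267.4 in VEM, 172 in VEM+BOR, and 246.6 and 273.4 under BOR, against 340.7 and 176.1 in untreated cells. PLEKHG4B (0.085), DACT3 (0.086), CACNB3 (0.092) and SEZ6L2 (0.093) followed, each with untreated 1 as its highest library. The other class II genes were farther from CD74, with HLA-DPB1 at 0.281, CIITA at 0.397, HLA-DMA at 0.554 and HLA-DPA1 at 0.602, where the median over all genes was 0.547. With 6 libraries this is a description.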

How the data were processed

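RNA of 6 SKM-1 libraries was measured. Per the labels' protocols, poly-T beads selected mRNA, random hexamers primed cDNA, and pairs of 150 bp were read. The submitters' processing notes name edgeR 3.22.5, DESeq2 1.20.0, featureCounts 1.5.0-p3, HISAT2 2.0.5 and CASAVA, with no role. No source used here names a build, and coordinates of the genes described equal those of GENCODE 29 on GRCh38.

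The authors deposited 3 tables, each with a normalised signal per gene and library (reads divided by 1 factor per library). The log2 fold changes, p-values and adjusted p-values deposited there are the authors' own. Genes in a table had 2 or more reads in all. Dividing values by the worth of 1 read gave whole reads within 0.001 for 100% of values in each library. Library totals were 17252404 to 18507606 reads, and fewer reads give wider intervals. Exact Poisson intervals and the limit of 3 reads cover counting error only.

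limma 3.58.1 (R 4.3.3) was fitted within each table to log2(value + 1) of genes with a mean of at least 10, allowing the variance to follow the mean. Benjamini-Hochberg adjusted p under 0.05 was the threshold, two-sided. With 1 library each, VEM and VEM+BOR borrow their spread from the groups of 2 in the same fit. Values on 1 scale used median-of-ratios factors over 23519 genes found in all tables. The test was tested on simulated counts in which every gene and library had the same dispersion. Those counts held only large changes and no divergence like that of BOR 1 and BOR 2. They therefore do not show what the test would miss among the low class II genes here. Alternatives were TMM scaling, pseudocounts of 0.5 and 5, no filter, 1 fit of all libraries, edgeR 4.0.16, DESeq2 1.42.0 and leaving out each replicate. Named genes were the members, up to 3 genes per list with the largest change in VEM+BOR and any past the threshold, and the 5 profiles nearest to CD74. Other list genes given as values were chosen after their values were seen. Some list genes are not reported here. The members and lists were chosen with earlier results of these data known.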

Additional observations from a re-analysis of the deposited data

How the results depend on the processing

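Under the alternatives 0 of the 197 class II values with an adjusted p passed the threshold, with a smallest adjusted p of 0.263, and 3 more (HLA-DPA1, HLA-DPB1 and CIITA in VEM+BOR, by DESeq2) got no adjusted p. Of all 200, 170 kept their direction and 30 reversed. Left-out libraries gave log2 changes of -0.23 to 1.27 for HLA-DPA1, -0.48 to 0.38 for HLA-DPB1, -0.91 to 1.50 for HLA-DMA and -0.41 to 0.60 for CD74 in VEM. In BOR they gave -0.75 to 0.74 for HLA-DPA1, -0.69 to 0.15 for HLA-DPB1, -0.60 to 1.79 for HLA-DMA, -0.47 to 0.52 for CD74 and -0.10 to 0.10 for CIITA. In VEM+BOR they gave -0.44 to 0.42 for HLA-DPB1, -0.64 to 1.77 for HLA-DMA and -1 to 0.01 for CD74, and against BOR -0.20 to 0.14 for HLA-DMA and -0.18 to 0.02 for CIITA. Other reversals were, in VEM, HLA-DMA at -0.19 (edgeR) and -0.18 (DESeq2) and CD74 at -0.01 and -0.0042; in BOR, HLA-DPA1 at 0.00037 with a pseudocount of 0.5, CD74 at -0.05 (TMM), -0.15 (edgeR) and -0.08 (DESeq2), and CIITA at -0.07, -0.08 and -0.01; against BOR, HLA-DMA at 0.04 (TMM) and 0.03 (edgeR). The cause was not tested.

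Counts over all genes moved more. For VEM, 6 higher and 1 lower became 37 and 4 (edgeR), 13 and 3 (DESeq2), and 0 and 0 without the filter, in 1 fit of all libraries and without either untreated library (0 to 0). For VEM+BOR, 27 higher and 3 lower became 45 and 6 (TMM), 74 and 11 (edgeR), 52 and 12 (DESeq2), and 0 and 0 without the filter, in 1 fit of all libraries and without either untreated library. For BOR, 0 and 0 became 28 higher with DESeq2, and without BOR 1 they became 1497 higher and 2511 lower (range over left-out libraries 0 to 1497 and 0 to 2511). Against BOR, 0 and 0 became 3 lower with DESeq2, and 2459 higher and 1140 lower without BOR 1 (ranges 0 to 2459 and 0 to 1140), or 2 and 1 without BOR 2. Leaving out an untreated library leaves too few for VEM or VEM+BOR within a table, so that fit used all other libraries. No paired analysis was possible because the labels give no shared replicate numbers. Depth limits HLA-DRA and HLA-DMB, with at most 12 reads.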
